A study of Mus musculus with 8 samples.

Results

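The receptors described here are the 8 genes of the incretin and glucagon receptor family, chosen by name: Glp1r, Gipr, Gcgr, Glp2r, Sctr, Adcyap1r1, Vipr1 and Vipr2. All 8 were found among the 46955 gene entries of the table. They were followed in 8 RNA-seq libraries of cells sorted by fluorescence from the pancreatic islets of adult mice. All animals combined a red nuclear mCherry reporter under the Ins1 promoter, a Cre recombinase driven by the glucagon gene (Gcg-cre) and a floxed YFP allele, so alpha cells and their descendants keep a yellow label. The transdifferentiated cells (2 libraries) are insulin-reporter cells that also carry the alpha lineage label, the alpha cells (3 libraries) carry the yellow label and the beta cells (3 libraries) the red one. Islets of 10 to 12 animals were pooled by sex, which gave 4 male and 4 female libraries, and the islets spent a night in medium with 5.5 mM glucose before sorting. A sentence of the submitters' design text speaks of bitransgenic females instead, so the genotype behind every library is known only as far as these labels go. Replicate 1 is the male and replicate 2 the female pool of transdifferentiated cells; alpha replicates 1 and 2 and beta replicate 3 are male, and alpha replicate 3 and beta replicates 1 and 2 are female. The lineage mark rests on activity of the glucagon gene at any time, and the labels do not say when the Cre acted.

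These receptors belong to class B of the G protein-coupled receptors, which bind peptide hormones and signal mainly through the stimulatory G protein and cyclic AMP. Glp1r binds GLP-1 and Gipr binds GIP, the incretin hormones that the gut releases after a meal and that amplify glucose-stimulated insulin secretion. Gcgr is the glucagon receptor, best known from liver, and in beta cells it responds to glucagon released by neighbouring alpha cells. Glp2r binds GLP-2 and acts mainly in the gut, and Sctr binds secretin and acts on duct cells. Adcyap1r1 is the PACAP-preferring receptor, while Vipr1 and Vipr2 bind both VIP and PACAP, neuropeptides of islet nerves.

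The stretch just upstream of the start is shown for 3 receptors whose levels followed different patterns: Glp1r and Gcgr, high in insulin-reporter cells, and Vipr1, lowest in the transdifferentiated cells. The sequences are the reference of RefSeq (GRCm38.p6), from 250 to 51 bases before the start that RefSeq annotates, on the plus strand, on which all 3 genes lie. They cover chr17:30901617-30901816 for Glp1r, chr11:120530477-120530676 for Gcgr and chr9:121642466-121642665 for Vipr1. Capitals mark GC boxes, GGGCGG or its reverse complement CCGCCC, the letters to which factors of the Sp and Klf families are known to bind.
Glp1r: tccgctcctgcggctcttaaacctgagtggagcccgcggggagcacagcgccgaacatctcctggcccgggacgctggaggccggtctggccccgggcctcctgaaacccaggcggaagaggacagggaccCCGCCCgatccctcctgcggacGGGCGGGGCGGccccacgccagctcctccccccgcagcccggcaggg
Gcgr: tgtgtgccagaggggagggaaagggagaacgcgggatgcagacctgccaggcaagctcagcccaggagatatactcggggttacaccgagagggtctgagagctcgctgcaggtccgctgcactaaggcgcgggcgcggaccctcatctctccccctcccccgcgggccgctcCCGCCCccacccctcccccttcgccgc
Vipr1: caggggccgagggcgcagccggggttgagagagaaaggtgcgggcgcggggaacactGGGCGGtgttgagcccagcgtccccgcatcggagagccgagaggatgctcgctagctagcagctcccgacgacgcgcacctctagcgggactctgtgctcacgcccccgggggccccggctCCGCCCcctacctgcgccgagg
There were 3 GC boxes in the Glp1r window, of which the last 2 overlap, 1 in the Gcgr window and 2 in the Vipr1 window, and none in the window of Vipr2. Of 32851 mouse windows of the same 200 bases, 24.6% held a GC box. The share of G and C was 75% for Glp1r, 69.5% for Gcgr, 73% for Vipr1 and 62% for Vipr2, against a median of 51.5% over all windows. None of the 4 windows held TATAAA (9.14% of all windows), the short cyclic AMP response element TGACG (12.7%), its long form TGACGTCA (0.828%), an E-box CANNTG (59%) or TGCTGA, a core of Maf sites (13.1%), on either strand. A match or its absence describes only these letters in these 200 bases. In GENCODE M21 (GRCm38), whose starts of Glp1r and Gcgr lie upstream of those of RefSeq, Glp1r spans chromosome 17 from 30901817 to 30940791, Gcgr chromosome 11 from 120530699 to 120538986, Gipr chromosome 7 from 19156061 to 19166127 on the minus strand, Vipr1 chromosome 9 from 121642716 to 121672954, and Vipr2 chromosome 12 from 116077726 to 116146261. Levels count reads over a gene's exons, with no view of single exons or isoforms.

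Levels are RPKM, reads scaled by the length of the gene and the size of the library. Depth was lowest in transdifferentiated cells, at 1479177 and 2593026 reads recovered from the RPKM, and was 14220783 to 15507064 reads in alpha libraries and 17791083 to 25948737 reads in beta libraries. The sorted cells matched their labels by marker genes. The summed level of 7 beta markers was 108380 to 117626 RPKM in transdifferentiated, 1047 to 1377 RPKM in alpha and 148251 to 201593 RPKM in beta libraries. The 7 alpha markers summed to 20215 to 20319 RPKM in transdifferentiated, 175798 to 204150 RPKM in alpha and 642 to 1986 RPKM in beta libraries, and none of either list was at 0 throughout a group. Immune markers summed to 6 to 18.8 RPKM in transdifferentiated, 2.76 to 4.82 RPKM in alpha and 50.9 to 60.9 RPKM in beta libraries, and acinar markers varied within every group, at 207 to 606 RPKM in transdifferentiated, 25.3 to 1660 RPKM in alpha and 79.5 to 2225 RPKM in beta libraries. Of the 6 immune markers, 3 were under 1 RPKM in both transdifferentiated libraries, among them the pan-leukocyte marker Ptprc at 0. Ptprc averaged only 0.113 RPKM in beta cells, so a 0 at the lower depth does not show its absence. Cd74 (12 and 2.62 RPKM), H2-Aa and H2-Ab1 were above 1 RPKM in both. The part of immune and acinar cells in the receptor values was not tested. In pooled RNA, fewer cells that express a receptor and less of its RNA in each cell cannot be told apart. The titles of alpha replicates 2 and 3 and beta replicates 2 and 3 carry a letter b that those of the other 4 libraries lack, and the sources used here do not say what it stands for. Alpha replicates 1 and 2 share a title number, as do beta replicates 1 and 2, and whether such a pair came from separate pools is not stated, so p-values may partly measure technical spread.

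**Figure D1:**
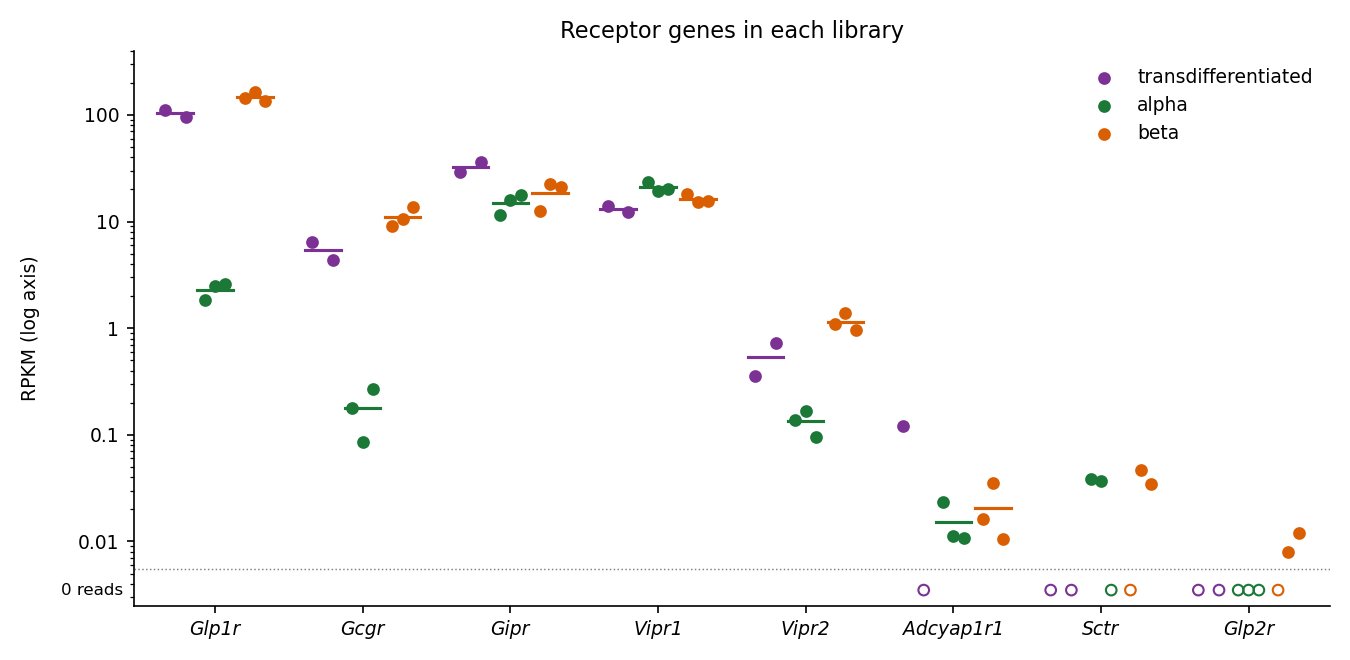
RPKM of each receptor gene in each library on a log axis, with transdifferentiated, alpha and beta libraries from left to right within a gene. Points are libraries, bars are group means (drawn where every library of the group has reads) and open circles below the dotted line are libraries with 0 reads. Glp1r and Gcgr sit high in transdifferentiated and beta libraries and low in alpha libraries, whereas Gipr and Vipr1 stay within 11.5 to 35.9 RPKM everywhere.

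The transdifferentiated cells held most of the high Glp1r level of beta cells. Glp1r was at 111 and 96 RPKM in the 2 transdifferentiated libraries, at 1.83, 2.47 and 2.59 RPKM in the alpha libraries, and at 143, 163 and 136 RPKM in the beta libraries. Every transdifferentiated library lay far above all alpha libraries and below all beta libraries, with no overlap. Of all genes tested, 40% lay without overlap above alpha cells and 15.3% below beta cells in the transdifferentiated libraries. The mean level was 103 ± 10.4 RPKM (SD, n = 2) in transdifferentiated cells, 45 times the alpha mean of 2.3 ± 0.406 RPKM (SD, n = 3). On the log2 scale this was a difference of 5.21 with an SE of 0.15 (limma adjusted p = 4.64e-06). Against the beta mean of 147 ± 14.1 RPKM (SD, n = 3) it was 0.702 times as high, which is -0.49 on the log2 scale (interval -0.84 to -0.14). That difference did not pass the adjusted threshold (adjusted p = 0.0717) and did so only when libraries were rescaled by the median ratio (log2 fold change -0.66, adjusted p = 0.022). Alpha cells were lower than beta cells, at a log2 fold change of -5.70 with an SE of 0.14 (adjusted p = 1.13e-06). These folds are differences of log2(RPKM + 0.5), which understates the change of genes at low levels.

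Glp1r in alpha cells was low but counted in each library, with 140 to 216 reads. That level was 1.56% of the beta mean, while 7 beta cell markers lay at 0.667% to 9.45% of their own beta means in the same alpha libraries, with a median of 0.818%. Whether the alpha reads of Glp1r came from alpha cells or from a few other cells was not tested. In transdifferentiated cells Glp1r was at 70.2% of the beta mean, within the 34.8% to 84.6% of the same 7 markers, whose median was 63.5%. Ins1, for example, reached 59.8% and Mafa, a transcription factor of mature beta cells, 34.8%. On linear RPKM Glp1r had covered 74.8% and 64.6% of the distance from the alpha to the beta mean in the 2 transdifferentiated libraries. On the log2 scale the mean of 69.7% became 91.1%.

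Gcgr, the glucagon receptor, had the same direction at a lower level. It was at 6.44 and 4.4 RPKM in transdifferentiated libraries, at 0.177, 0.0852 and 0.271 RPKM in alpha libraries, and at 9.06, 10.5 and 13.7 RPKM in beta libraries. The transdifferentiated libraries again fell between both references without overlap, with the shares of all genes given for Glp1r. Alpha cells, the source of glucagon, had almost no message for its receptor. These levels stood on 21 and 25 reads in transdifferentiated libraries, 3 to 10 reads in alpha libraries and 443 to 591 reads in beta libraries. The mean of 5.42 ± 1.44 RPKM (SD, n = 2) in transdifferentiated cells was set against 0.178 ± 0.0927 RPKM in alpha cells (SD, n = 3). The log2 fold change was 3.15, its SE 0.23 (adjusted p = 0.000169). Beta cells averaged 11.1 ± 2.37 RPKM (SD, n = 3). Gcgr was lower in alpha than in beta cells, by a log2 fold change of -4.15 whose SE was 0.21 (adjusted p = 1.48e-05). Both calls held in all 17 alternatives in which Gcgr was tested. No alpha library reached the 1 RPKM of the filter on low values, so Gcgr was tested because it was high in the other groups. The transdifferentiated libraries and the beta libraries each met the filter on their own.

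The lower Gcgr level of transdifferentiated against beta cells, 48.8% of the beta mean, passed the threshold narrowly, at a log2 fold change of -1.01 with an SE of 0.23 (adjusted p = 0.0337). On linear RPKM the 2 libraries stood at 57.3% and 38.7% of the distance from the alpha to the beta mean. The direction against beta cells held in every alternative, with log2 fold changes from -1.19 to -0.78, but the call was kept in 7 of 17 of them. With the title letter as a further term the call was lost (log2 fold change -0.88, limma adjusted p = 0.0743). It was lost without any 1 of the transdifferentiated or beta replicates (adjusted p = 0.0619 and 0.12 without transdifferentiated replicates 1 and 2, and 0.0712, 0.0821 and 0.157 without beta replicates 1 to 3) and without alpha replicate 1 (0.0514). With the counting intervals, the transdifferentiated libraries lay at 3.99 to 9.84 and 2.85 to 6.5 RPKM, and the interval of the first overlapped those of beta replicates 1 and 2, 8.23 to 9.94 and 9.7 to 11.4 RPKM. Such intervals (95%, exact Poisson) and the floors given further on cover counting error only. Gcgr overlaps the antisense gene Gm11789 on the opposite strand, which averaged 0.807 RPKM in transdifferentiated, 0.109 RPKM in alpha and 2.58 RPKM in beta cells. The library kit does not mark strand, so reads of the pair cannot be told apart where the genes overlap. Of the other tested receptors, Glp1r overlaps AC165951.1 and AC174471.1, and Vipr2 overlaps Gm20658, all on the opposite strand. The genes over Glp1r have no values here.

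Gipr, the receptor of the other incretin, had its highest levels in the transdifferentiated libraries. It was at 29.1 and 35.9 RPKM in transdifferentiated libraries, at 11.5, 15.9 and 17.6 RPKM in alpha libraries, and at 12.6, 22.3 and 20.9 RPKM in beta libraries. Both transdifferentiated libraries were above all 6 references, while alpha and beta libraries overlapped. Of all 13172 genes tested, 31% lay without overlap above beta cells and 40% above alpha cells in the transdifferentiated libraries. The mean was 32.5 ± 4.83 RPKM (SD, n = 2) in transdifferentiated cells and 15 ± 3.12 RPKM in alpha cells (SD, n = 3). The log2 fold change was 1.08, its SE 0.28 (adjusted p = 0.0246). Beta cells averaged 18.6 ± 5.22 RPKM (SD, n = 3), and the difference from them was 0.84 on the same scale, with an SE of 0.28 and an interval of 0.19 to 1.49 that did not pass adjustment (adjusted p = 0.0889). Alpha against beta cells did not pass either, with a log2 fold change of -0.24 and an interval of -0.85 to 0.36 (adjusted p = 0.466); without beta replicate 3 it was 0.05 (adjusted p = 0.923).

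The Gipr values moved with the letter in the library titles. Among references, the libraries without it were lowest, alpha replicate 1 at 11.5 and beta replicate 1 at 12.6 RPKM, against 15.9 to 22.3 RPKM in those with it. Neither transdifferentiated title carries the letter, and set beside the letterless library of each reference, their mean was 2.81 times the alpha and 2.57 times the beta value. Those folds compare with 2.16 and 1.75 over all libraries and have no replicates in the references. With the letter as a further term, the log2 fold change was 1.51 against alpha cells (adjusted p = 0.00149) and 1.26 against beta cells (adjusted p = 0.00866). The call against alpha cells was in turn lost in 8 of 18 alternatives. These were median-ratio scaling (adjusted p = 0.0513), no filter (0.0582), limma voom (0.0652) and each omission of an alpha replicate (0.0501 to 0.0603). The others were the omissions of a transdifferentiated replicate (log2 fold change 1.23 and 0.96).

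Messages of other islet endocrine cells also differed between these libraries. The 5 delta cell markers, of which Sst dominated, summed to 2967 to 3096 RPKM in transdifferentiated, 1371 to 3197 RPKM in alpha and 312 to 891 RPKM in beta libraries. The 3 PP and epsilon markers summed to 8249 to 11439 RPKM in transdifferentiated, 7961 to 13025 RPKM in alpha and 590 to 1274 RPKM in beta libraries, and none of these markers was at 0 throughout a group. Alpha replicate 1 had the highest sum of both lists among alpha libraries and the lowest Gipr level of all 8 libraries. Beta replicate 2 went the other way, with the highest sum of both lists (891 and 1274 RPKM) and the highest Gipr level (22.3 RPKM) among beta libraries. The part of such cells in the Gipr difference was not tested.

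**Figure D2:**
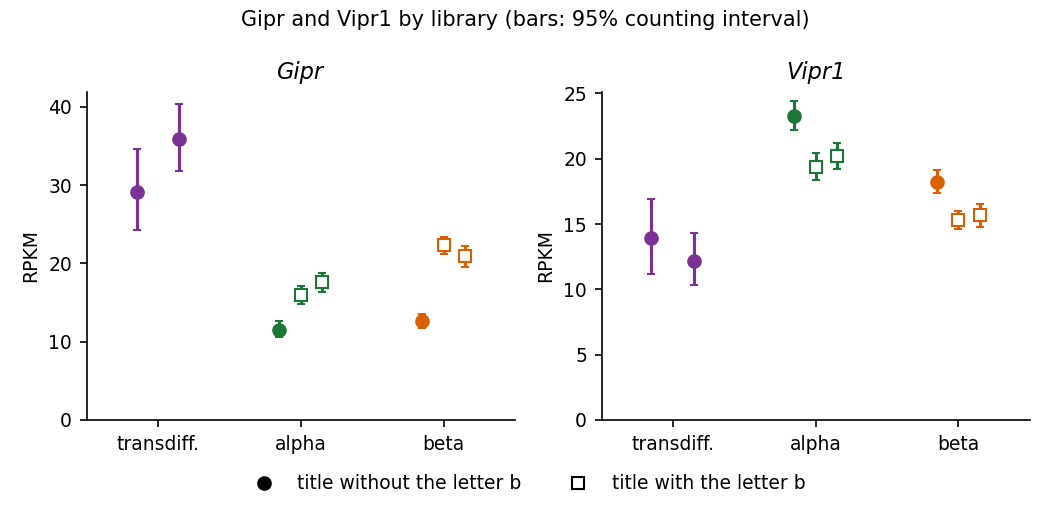
RPKM of Gipr (left) and Vipr1 (right) in each library from 0, with exact 95% counting intervals as bars; filled circles are libraries without, and open squares libraries with, the letter b in their title. Gipr lies at 29.1 and 35.9 RPKM in transdifferentiated libraries and at 11.5 to 22.3 RPKM in the references, and Vipr1 at 12.2 and 13.9 RPKM against 15.3 to 23.3 RPKM.

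Vipr1 ran the other way, lowest in the transdifferentiated cells. It was at 13.9 and 12.2 RPKM in transdifferentiated libraries, at 23.3, 19.4 and 20.2 RPKM in alpha libraries, and at 18.2, 15.3 and 15.7 RPKM in beta libraries. Both transdifferentiated libraries were below every alpha and beta library, and the alpha mean was the highest. The mean was 13 ± 1.19 RPKM (SD, n = 2) in transdifferentiated cells and 20.9 ± 2.07 RPKM in alpha cells (SD, n = 3). Vipr1 fell against alpha cells, at a log2 fold change of -0.66 with 0.13 as its SE (adjusted p = 0.00907), and the call held in all 18 alternatives. Against the beta mean of 16.4 ± 1.62 RPKM (SD, n = 3) the log2 fold change was -0.33, with an interval of -0.63 to -0.02, and it did not pass (adjusted p = 0.135). With the title letter as a term it was -0.48 (adjusted p = 0.0364). Of all genes tested, 15.3% lay without overlap below beta cells and 13.1% below alpha cells in the transdifferentiated libraries. The counting interval of transdifferentiated replicate 1, 11.2 to 16.9 RPKM, reached into those of beta replicates 2 and 3.

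In alpha against beta cells Vipr1 had a log2 fold change of 0.33 with an interval of 0.05 to 0.61, just short of the threshold (adjusted p = 0.0581). The direction was the same in all 18 alternatives, at 0.24 to 0.54, and 8 of them made the call, among them limma voom on recovered reads (adjusted p = 0.00823) and the fits without transdifferentiated replicate 1 (0.0499), transdifferentiated replicate 2 (0.0497) or beta replicate 1 (0.0385).

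Vipr2, which binds the same ligands, was scarce and followed the pattern of the beta-enriched receptors. It was at 0.36 and 0.724 RPKM in transdifferentiated libraries, at 0.139, 0.167 and 0.0954 RPKM in alpha libraries, and at 1.1, 1.38 and 0.953 RPKM in beta libraries. The transdifferentiated libraries lay between the references without overlap, where 40% of all genes tested lay above alpha cells and 15.3% below beta cells. They rested on 2 and 7 reads, which give counting intervals of 0.0436 to 1.3 and 0.291 to 1.49 RPKM. Both intervals reach the beta level, and the lower one also reaches the alpha level. The libraries stood at 22.3% and 58.2% of the distance from the alpha to the beta mean. Alpha cells were lower than beta cells, at a log2 fold change of -1.31 with an SE of 0.26 (adjusted p = 0.00705), but only beta replicates 1 and 2 reached the 1 RPKM of the filter, so Vipr2 was tested because it was high in beta cells. The call was lost without beta replicate 3 (adjusted p = 0.05 after rounding) and without alpha replicate 3 (adjusted p = 0.0594). With limma voom on reads, without the pseudocount of 0.5 RPKM, the same difference was -2.82. Transdifferentiated cells differed from alpha cells by a log2 fold change of 0.67 (interval -0.01 to 1.34, adjusted p = 0.123) and from beta cells by -0.64 (interval -1.32 to 0.03, adjusted p = 0.174), neither past the threshold. The difference from alpha cells passed in 3 of 17 alternatives, including limma voom (1.99, adjusted p = 0.0375).

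The receptors for GLP-2 and secretin and the PACAP-preferring receptor were barely detected in any of the cells. Glp2r had 0 reads in both transdifferentiated and all 3 alpha libraries, and 0, 1 and 1 in beta libraries. Sctr had 0 reads in both transdifferentiated libraries, 1, 1 and 0 in alpha and 0, 2 and 1 in beta libraries. Adcyap1r1 had 1 and 0 reads in transdifferentiated, 2, 1 and 1 in alpha, and 2, 5 and 1 in beta libraries. All 3 genes therefore missed the filter on low values and were not tested. A count of 0 allows up to 3 reads, which at this depth is a Glp2r level of up to 0.415 and 0.238 RPKM and an Sctr level of up to 1.2 and 0.688 RPKM in the transdifferentiated libraries. In the reference libraries 3 reads stand for at most 0.0399 RPKM of Glp2r and at most 0.115 RPKM of Sctr. An Sctr level as high as that of Vipr2 would thus not have been detectable for certain in the transdifferentiated cells.

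Set side by side, 5 of the 8 receptors could be tested. Against beta cells, transdifferentiated cells had 0 receptors called higher and 1 lower (Gcgr), with 12% of all 13172 genes called, 9.1% higher and 2.9% lower. Without adjustment 4 receptors had a p under 0.05, and limma voom on recovered reads called 0. The median log2 fold change of the 5 was -0.49, against 0.09 over all genes. Against alpha cells, 3 receptors rose (Glp1r, Gcgr and Gipr) and 1 fell (Vipr1), with 29.9% of all genes called, 23.2% higher and 6.67% lower, and the medians were 1.08 for the receptors and 0.17 for all genes. Alpha against beta cells, 0 receptors were higher and 3 lower (Glp1r, Gcgr and Vipr2), with 43.6% of all genes called, 16.9% higher and 26.7% lower, and medians of -1.31 and -0.05. Vipr2 entered these tests only through its beta libraries, so its place among the 3 carries no weight of its own. Each pair of these 3 comparisons shares a group of libraries. Of the receptors whose upstream windows are printed, Glp1r and Gcgr rose and Vipr1 fell against alpha cells, and each of their windows holds at least 1 GC box. Rescaling by the median ratio moved the median of all genes against beta cells to -0.06 and against alpha cells to -0.05, and the share of higher calls among all called genes from 75.8% to 47.3% and from 77.6% to 49.7%. No receptor changed direction under it, but Gipr lost its call against alpha cells (log2 fold change 0.85, limma adjusted p = 0.0513). Glp1r in turn gained a call against beta cells (-0.66, limma adjusted p = 0.022).

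**Figure D3:**
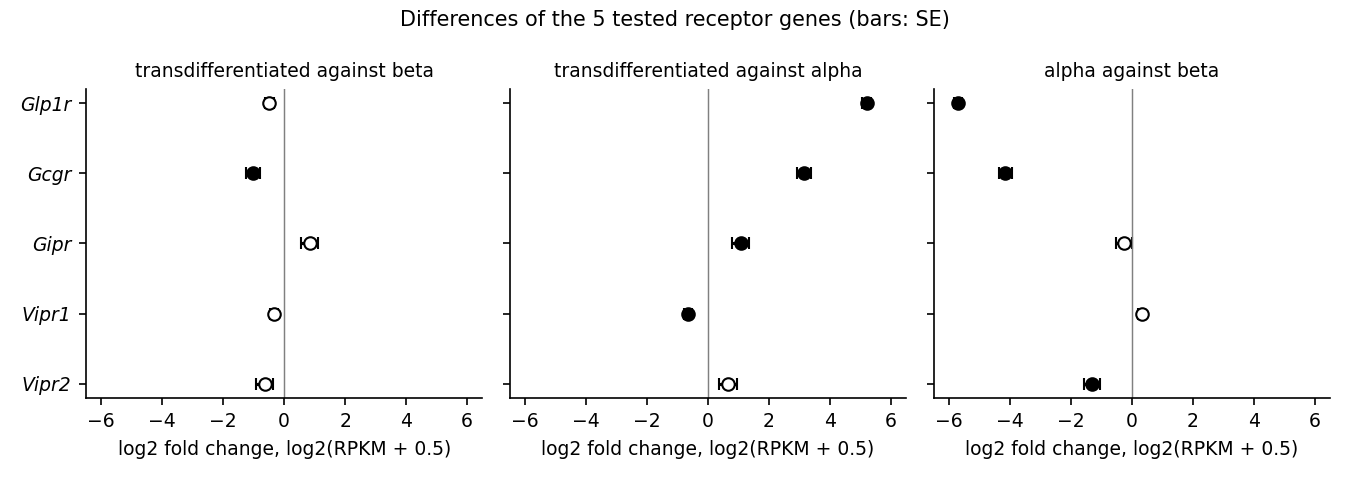
Log2 fold change of log2(RPKM + 0.5), with its standard error, for the 5 tested receptors in transdifferentiated against beta, transdifferentiated against alpha and alpha against beta cells. Filled points have a limma adjusted p under 0.05; Glp1r and Gcgr lie far from 0 in both comparisons with alpha cells, and in transdifferentiated against beta cells all 5 lie between -1.01 and 0.84.

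RPKM is per length, so levels can be ranked between receptors. In transdifferentiated cells the order was Glp1r, Gipr, Vipr1, Gcgr and Vipr2, and library ranges of neighbours did not overlap. In alpha cells it was Vipr1, Gipr, Glp1r, Gcgr and Vipr2, with overlap between Gcgr and Vipr2. In beta cells it was Glp1r, Gipr, Vipr1, Gcgr and Vipr2, with overlap between Gipr and Vipr1. The summed level of the 8 receptors was 161 and 149 RPKM in transdifferentiated libraries, 37, 38.1 and 40.8 RPKM in alpha libraries and 184, 213 and 187 RPKM in beta libraries. Receptor message was thus lower in alpha cells than in either insulin-reporter population, in every library.

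The balance between the incretin receptors differed between the cells. Glp1r made up 69% and 64.3% of the summed level in transdifferentiated libraries, 4.94%, 6.48% and 6.35% in alpha libraries and 77.7%, 76.7% and 72.6% in beta libraries. The Gipr share was 18.1% and 24.1% in transdifferentiated libraries, 31.2%, 41.9% and 43.1% in alpha libraries and 6.87%, 10.5% and 11.1% in beta libraries. Glp1r was 3.81 and 2.67 times Gipr in transdifferentiated libraries, 0.147 to 0.159 times in alpha libraries and 6.52 to 11.3 times in beta libraries. All 3 ranges are separate, with the transdifferentiated cells in between. Vipr1 held 8.63% and 8.17% of the sum in transdifferentiated libraries, 62.9%, 50.9% and 49.6% in alpha libraries, and 9.93%, 7.18% and 8.36% in beta libraries, so here the transdifferentiated values fell within the beta range.

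**Figure D4:**
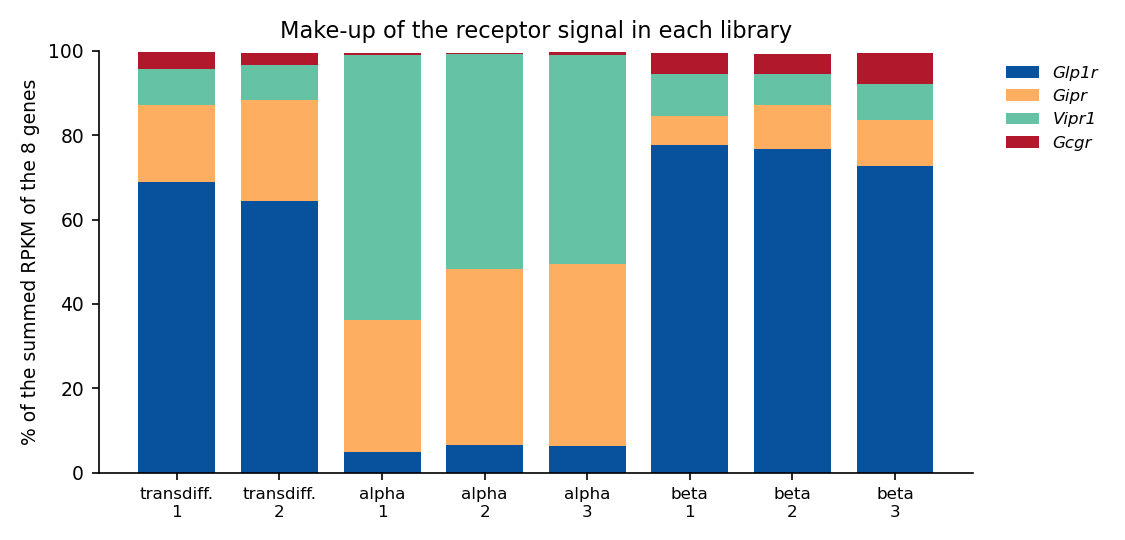
Share of each receptor in the summed RPKM of the 8 receptors, 1 bar per library; the 4 genes too low to see make up the rest. Glp1r fills 64.3% to 69% of the transdifferentiated, 4.94% to 6.48% of the alpha and 72.6% to 77.7% of the beta bars, and Vipr1 is the largest share in alpha libraries.

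Sex was the other label that varied within groups. In male against female libraries limma called 0 of 5 receptors, limma voom also 0, and 0 reached a p under 0.05 before adjustment, with 0.0456% of all genes called. Log2 fold changes of the receptors spanned -0.18 (Vipr2, interval -0.72 to 0.36) to 0.20 (Gcgr, interval -0.23 to 0.63). In 15 tests of whether a difference between cell groups itself differed between sexes, limma called 0, with 0% of all genes called, 1 reached a p under 0.05 before adjustment (Gcgr in alpha against beta cells) and the lowest adjusted p was 0.412. The transdifferentiated group has 1 pool of each sex. Whether the libraries of a sex came from separate pools is not stated, so the test between sexes may rest on fewer pools than libraries.

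For each tested receptor, the genes of most similar profile were taken as those with the smallest root-mean-square difference in centred log2(RPKM + 0.5) values over the 8 libraries, among 11602 candidates. The closest to Glp1r were Pcsk1, the convertase that makes GLP-1 from proglucagon and cuts proinsulin (difference 0.26, where Glp1r itself varied by 2.69 around its mean), Fam151a (0.32) and Sytl4, which encodes the granule protein granuphilin (0.33). Pcsk1 averaged 108 ± 8.06 RPKM in transdifferentiated, 2.06 ± 0.207 RPKM in alpha and 201 ± 26.6 RPKM in beta cells (SD, n = 2, 3 and 3). The closest to Gcgr were Galnt14 (0.22), Ppp1r1a (0.25), a phosphatase inhibitor acting downstream of cyclic AMP, and Trpm5 (0.28), a cation channel of taste and beta cells. Gcgr stood at 0.94 from Glp1r. Of the candidates, 0.396% were closer to Glp1r than Gcgr was, and 2.11% were closer to Gcgr than Glp1r was.

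Profiles with less contrast had closer neighbours. Gipr, which varied by 0.51, was followed most closely by Elavl4 (0.14), Ctso (0.18) and Dzip1l (0.18). Elavl4, a neuronal RNA-binding protein gene, averaged 11.2 RPKM in transdifferentiated, 5.4 RPKM in alpha and 7 RPKM in beta cells. Vipr1, which varied by 0.28, was nearest to Npc2 (0.10), Asf1a (0.11) and Rnf130 (0.11), and Vipr2, which varied by 0.62, to Cyb5b (0.09), Ppat (0.11) and Vash1 (0.12). The pseudocount holds down the variation of a gene as low as Vipr2.

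The ligands and the enzymes that make or remove them differed between the cells as well. Counts of this and the next gene lists stand beside the 12%, 29.9% and 43.6% of all genes called in transdifferentiated against beta, transdifferentiated against alpha and alpha against beta cells. Of 13 genes listed, 8 could be tested; against beta cells transdifferentiated cells had 1 higher, 1 lower and 6 not called (median log2 fold change 0.04), and against alpha cells 2 higher, 5 lower and 1 not called (median -0.58). Alpha against beta cells, 5 were higher, 2 lower and 1 not called (median 0.66). Gcg, which encodes glucagon and GLP-1, was at 19374 and 19104 RPKM in transdifferentiated libraries, at 170137 to 196491 RPKM in alpha libraries and at 478 to 1773 RPKM in beta libraries. Pcsk1 was lower than in beta cells by a log2 difference of -0.87 ± 0.12 (SE, adjusted p = 0.00999) and higher than in alpha cells by 5.38 ± 0.12 (SE, adjusted p = 2.29e-06).

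Pcsk2, whose product cuts proglucagon to glucagon, was at 422 ± 1.08 RPKM in transdifferentiated cells (SD, n = 2), 663 ± 69.2 RPKM in alpha cells and 392 ± 50.8 RPKM in beta cells (SD, n = 3 each), and was lower than in alpha cells (log2 fold change -0.65, adjusted p = 0.015). Dpp4, which inactivates GLP-1 and GIP, averaged 22.4 RPKM in transdifferentiated, 10.1 RPKM in alpha and 21.8 RPKM in beta cells and was higher than in alpha cells (log2 fold change 1.13, adjusted p = 0.00464). Sct, the secretin gene, was listed at 0 in both transdifferentiated libraries, and averaged 1.54 RPKM in alpha cells and 0.0871 RPKM in beta cells. It passed the filter only through alpha cells, and 3 reads of this short gene stand for 4.51 and 2.59 RPKM in the transdifferentiated libraries. Its call among the 5 lower against alpha cells thus does not show a lower level. For the same filter, its call among the 5 higher in alpha against beta cells carries no weight of its own. Gip and Adcyap1, the genes of GIP and PACAP, were listed at 0 in all 8 libraries, and Vip in both transdifferentiated libraries.

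Receptor partners were tested in small numbers. Of 10 other class B receptors and RAMPs, small membrane proteins that modify such receptors, 2 could be tested. Ramp2 was at 4.38 and 5.87 RPKM in transdifferentiated libraries, 0.316 to 0.774 RPKM in alpha libraries and 4.44 to 5.7 RPKM in beta libraries, and its log2 fold change was 2.32 against alpha cells (SE 0.22, adjusted p = 0.000474) and 0.09 against beta cells (adjusted p = 0.8). Ramp1 passed in no comparison. The list had 0 of 2 called against beta cells (median log2 fold change 0.38), 1 higher against alpha cells (median 1.54), and 1 lower in alpha against beta cells (median -1.16).

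Of 21 tested genes of G proteins, arrestins and receptor kinases, 4 were higher, 3 lower and 14 not called in transdifferentiated against beta cells (median log2 fold change 0.06), and 10 were higher, 3 lower and 8 not called against alpha cells (median 0.33). Alpha against beta cells gave 6 higher, 9 lower and 6 not called (median -0.25). Gnai1, an inhibitory alpha subunit, averaged 13.2 RPKM in transdifferentiated, 43.9 RPKM in alpha and 4.97 RPKM in beta cells, whereas its relative Gnai2 averaged 203 RPKM in transdifferentiated, 83.6 RPKM in alpha and 277 RPKM in beta cells. Both were called in each comparison, in opposite directions. Gnas, the stimulatory subunit to which these receptors couple, was at 10.3 ± 0.543 RPKM in transdifferentiated cells (SD, n = 2), 47.1 ± 1.57 RPKM in alpha cells and 3.63 ± 0.56 RPKM in beta cells (SD, n = 3 each), but its locus holds overlapping genes on both strands, so its values are uncertain. Arrb2, an arrestin that binds activated receptors, was higher in transdifferentiated cells than in both references, at 17.4 RPKM, against 12.8 RPKM in alpha cells (log2 fold change 0.45, adjusted p = 0.0288) and 9.85 RPKM in beta cells (0.77, adjusted p = 0.0131). Being called above both was the case for 2.39% of all genes.

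Genes that make, read or degrade cyclic AMP were called about as often as all genes in transdifferentiated against beta cells. Of 22 tested, 3 were higher, 0 lower and 19 not called (median log2 fold change -0.02), against 7 higher, 2 lower and 13 not called in the comparison with alpha cells (median 0.30). Alpha against beta cells gave 4 higher, 10 lower and 8 not called (median -0.33). Adcy5 passed the filter only through alpha libraries and Pde3a only through transdifferentiated ones, so their calls in these counts carry no weight of their own. The 3 higher than in beta cells were Adcy6, an adenylyl cyclase (log2 fold change 0.81, adjusted p = 0.0297), and the phosphodiesterases Pde4d (0.80, adjusted p = 0.031) and Pde7b (0.99, adjusted p = 0.0331). Adcy6 was at 32 RPKM in transdifferentiated cells and at 36.1 RPKM in alpha cells, above the 18 RPKM of beta cells, while Pde7b was highest in transdifferentiated cells, at 3.01 RPKM, with 0.127 RPKM in alpha and 1.27 RPKM in beta cells. Prkar2b, a regulatory subunit of protein kinase A, averaged 20.9 RPKM in transdifferentiated, 4.87 RPKM in alpha and 20.7 RPKM in beta cells, and rose against alpha cells by 1.99 ± 0.15 on the log2 scale (SE, adjusted p = 0.000226).

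The transcription factor CREB, which cyclic AMP activates, and its coactivators and targets were also called at shares near those of all genes in both comparisons with transdifferentiated cells. Of 15 tested genes, 2 were higher, 0 lower and 13 not called against beta cells (median log2 fold change 0.02), and 4 were higher, 0 lower and 11 not called against alpha cells (median 0.02). Alpha against beta cells, 0 were higher, 4 lower and 11 not called (median 0.10). The coactivator gene Crtc2 was above both references, at 16.8 RPKM in transdifferentiated cells, against 13.6 RPKM in alpha (adjusted p = 0.0359) and 12.2 RPKM in beta cells (adjusted p = 0.0247), and Crtc1 above beta cells (log2 fold change 0.45, adjusted p = 0.042). Creb1 itself averaged 6.64 RPKM in transdifferentiated, 7.85 RPKM in alpha and 6.18 RPKM in beta cells and passed in no comparison.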

How the data were processed

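The authors deposited 1 table of RPKM for 46959 entries and 8 libraries; 4 entries with repeated names were left out. The tools named are STAR 2.5, featureCounts and edgeR 3.14.0, with GRCm38.p4 as the build, per the submitters' processing notes. Per the labels' protocols, libraries came from version 2 of the TruSeq RNA kit, an unstranded one. The sources used here do not give the gene annotation behind the RPKM. For the alpha and beta cells the design text refers to a further series. Nothing says that libraries with a shared title number came from separate pools.

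Differences were tested in R 4.3.3 with limma 3.58.1, by lmFit and trended eBayes on log2(RPKM + 0.5), with cell group and sex as terms in 1 fit of all 8 libraries. The fit took the 13172 genes that reached 1 RPKM in 2 or more libraries, and p-values were adjusted over all of them by Benjamini-Hochberg, with a threshold of 0.05. Intervals of a log2 fold change are 95% intervals of the fit. Summaries were made with Python 3.11.15, numpy 2.4.6 and pandas 2.3.3, and the same fit was also run on simulated data.

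Whole reads were recovered from the steps of the deposited RPKM with exon lengths of GENCODE M21. Of 25353 expressed genes matched by name, 78.5% (19911) came out whole in every library, to within 0.01 read, and the length was solved from the steps for 6859 more, including Glp1r and Vipr1. The steps imply a library size of 0.8413 and 0.836 times the recovered sum in transdifferentiated, 0.9066 to 0.9091 in alpha and 0.806 to 0.8247 in beta libraries, so the deposited scaling differs between groups from one by these reads. Counting intervals are exact Poisson intervals at 95% and the floor of a count of 0 is 3 reads.

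The receptors, the gene lists and the markers were chosen with earlier results of these data known. Named were all 8 receptors, the 3 genes of most similar profile to each tested one, and members of the lists that were called or are ligands or direct partners; of the called ones, examples were taken. Alternatives changed the pseudocount, filter, scaling, terms or variance trend, used limma voom on recovered reads, or left out 1 library. No promoter entry of Gipr or Sctr was used.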

Additional observations from a re-analysis of the deposited data

Results flagged for a closer look

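Adcyap1r1, the PACAP receptor gene, differed in opposite directions in male and female pools. The transdifferentiated minus beta difference was 0.111 RPKM in males and -0.0258 RPKM in females. The transdifferentiated minus alpha difference was 0.104 RPKM in males and -0.0107 RPKM in females, and the alpha minus beta difference was 0.00681 RPKM in males and -0.0151 RPKM in females. These values stand on 0 to 5 reads per library, 1 of them in the male transdifferentiated pool, and the difference between the sexes was not tested.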

How the results depend on the processing

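Of 63 recounts of called receptors, 51 stayed within 1.5 times the reported count, and all 12 that moved concern transdifferentiated against beta cells, where the count is 1 (Gcgr). That range hides single calls gained or lost in the other comparisons. Against alpha cells the count of 4 became 3 with no filter and 5 with quantile normalization. In alpha against beta cells the count of 3 became 2 with the stricter filter and 4 with quantile normalization. Between sexes it was 0 throughout. In transdifferentiated against beta cells the count was 0 with a pseudocount of 0.1 RPKM, with no filter and with limma voom. It was also 0 with a filter at a mean of 10 RPKM, where neither Gcgr nor Vipr2 is tested. Median-ratio scaling gave 2, Gcgr and Glp1r. The title letter as a term also gave 2, but these were Gipr and Vipr1, and Gcgr lost its call (limma adjusted p = 0.0743). Leaving out 1 alpha or beta library gave 0 to 1. Of 307 single fold changes under alternatives, 272 kept direction and side of the threshold, 20 lost and 14 gained the call, and 1 reversed. That was Gipr in alpha against beta cells, at 0.05 (limma adjusted p = 0.923) without beta replicate 3. Leaving out single libraries gave -0.49 to 0.05 there. The 63 and the 307 do not include omissions of single libraries for male against female. With those, that comparison also changed sign, from -0.34 to 0.05 for Gipr and from -0.01 to 0.12 for Vipr1, never called. The place of Glp1r between alpha and beta cells was 69.7% on linear RPKM, 91.1% on the log2 scale and 61.7% after median-ratio scaling, and that of Gcgr 48% and 76.2% on the log2 scale; the other 27 recomputed places moved by less than 1 SD, which leaving out 1 of 2 transdifferentiated libraries cannot exceed, and that of Vipr2, at 40.3%, was 22.3% or 58.2% in single transdifferentiated libraries.

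Single libraries were not paired across groups, because the groups share no replicate number in their titles. Islets were pooled by sex, and whether the cell groups of a sex were sorted from the same pool is not stated. Sex was a term of the reported fit and the only block in it. The edgeR quasi-likelihood test on recovered reads was not run, and limma voom was the only test on those reads. With transdifferentiated libraries of 1479177 and 2593026 reads, Vipr2 and Gcgr rest on 2 to 25 reads there, and the letterless titles of both transdifferentiated libraries leave the letter only partly separable from the cell group.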
